A study of Mus musculus with 6 samples.

Results

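The genes described here encode enzymes of glycolysis, the pathway that splits glucose into pyruvate. Members were all probe sets that the platform annotation assigns to 1 of 10 genes (Gpi1, Pfkl, Pfkm, Pfkp, Aldoa, Tpi1, Pgk1, Pgam1, Eno1 and Pkm), with the array's own control probe sets left out. This gave 20 probe sets of 45037, and they read 8 of the 18193 genes that have a probe set of their own. Gpi1 and Eno1 were not analysed here, since no probe set carried either name in the annotation used. A probe set is a group of short oligonucleotides that together read 1 transcript, and its value is a log2 signal, so a difference of 1 is a doubling.

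Pancreatic islets came from OF1 male mice, 10 weeks old, in 2 groups of 3 samples, each on its own Affymetrix 3′ expression array. Mice of the first group were given bisphenol A (BPA), a chemical used to make plastics that can act through oestrogen receptors, and the control group the tocopherol-stripped corn oil vehicle. The labels give different accounts of the exposure. The design text gives 100 µg/kg per day under the skin as 2 injections of 50 µg/kg for 4 days, with islets taken 16 hours after the last one. The treatment protocol gives 2 days at 100 µg/kg per day, while the BPA samples carry a source name with 1 nM and 48 hours. The labels do not settle which of these was used. They call the samples biological replicates and mention 3 independent experiments per replicate, without the number of animals behind each array. The p-values therefore measure only the spread between these 6 arrays, which may be partly technical.

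Glycolysis has a special place in the beta cell, the insulin-producing cell of the islet, because the rate at which it breaks down glucose sets how much insulin is released. Phosphofructokinase (Pfkl, Pfkm, Pfkp) makes the committed step to fructose bisphosphate. Aldolase (Aldoa) splits that sugar, triose phosphate isomerase (Tpi1) interconverts the products, phosphoglycerate kinase (Pgk1) makes the pathway's first ATP, phosphoglycerate mutase (Pgam1) moves a phosphate group, and pyruvate kinase (Pkm) makes pyruvate and ATP.

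Array medians were 6.55 to 6.65 on the log2 scale, and 22518 probe sets with a mean above 6.60, the median of all, were tested. Any pair of arrays had a correlation of 0.976 to 0.993 across probe sets. The closest pair across the groups was BPA replicate 3 with control replicate 3 (0.993). The arrays read islet tissue: Ins2 had 15.24 to 15.32 after BPA and 15.27 to 15.31 in controls, and Gcg 14.98 to 15.08 after BPA and 15.07 to 15.14 in controls. The Ins2 value was the highest on each array. RNA of acinar cells was also read. Cela3b, the brightest acinar marker tested, had 15.09, 14.71 and 14.26 after BPA, against 14.92, 15.05 and 13.58 in controls. Ptf1a, also an acinar marker, was dimmer, at 6.33 to 9.76. Of the 12 tested islet endocrine markers, 6 were higher and 6 lower after BPA, none past the test.

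The glycolytic genes read slightly higher after BPA, and none of them passed the test. Of the 18 member probe sets above the signal filter, 16 had a higher mean after BPA and 2 a lower one, against 52.6% of all tested probe sets with a higher mean. The median difference (BPA minus control) was 0.18 on the log2 scale, with quartiles of 0.12 and 0.32, beside a median of 0.011 and quartiles of -0.12 and 0.13 over all 22518. In limma's moderated test with Benjamini-Hochberg adjustment over all tested probe sets, 0 of the 18 passed 0.05, as did 0% of all, and the smallest adjusted p among the members was 0.655. An unadjusted p under 0.05 was found for 5 member probe sets, all higher after BPA, and for 6.47% of all tested probe sets, 3.84% higher and 2.64% lower. These 5 were the 3 of Tpi1, that of Pfkm and 1 of Pfkl. Probe sets of a gene read the same RNA, so the counts rest on 8 genes and not on 18 independent values.

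The 3 BPA arrays lay above all 3 control arrays for 4 member probe sets, those of Tpi1 and Pfkm, against 7.83% of all tested probe sets in that direction. The other 14 tested members overlapped between the groups, and 0 lay lower without overlap, against 4.35% of all. The count turned on the scaling and on single arrays. It was 9 under quantile normalization, beside 8.49% of all tested probe sets, and 7 under cyclic loess, beside 6.06%. Without control replicate 2 it was 13, beside 12.3% of all tested probe sets, and without BPA replicate 3 it was 10, beside 19.1%. Without both replicate 3 arrays it was also 10, beside 25.0% of all, with a median difference of 0.25.

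**Figure D1:**
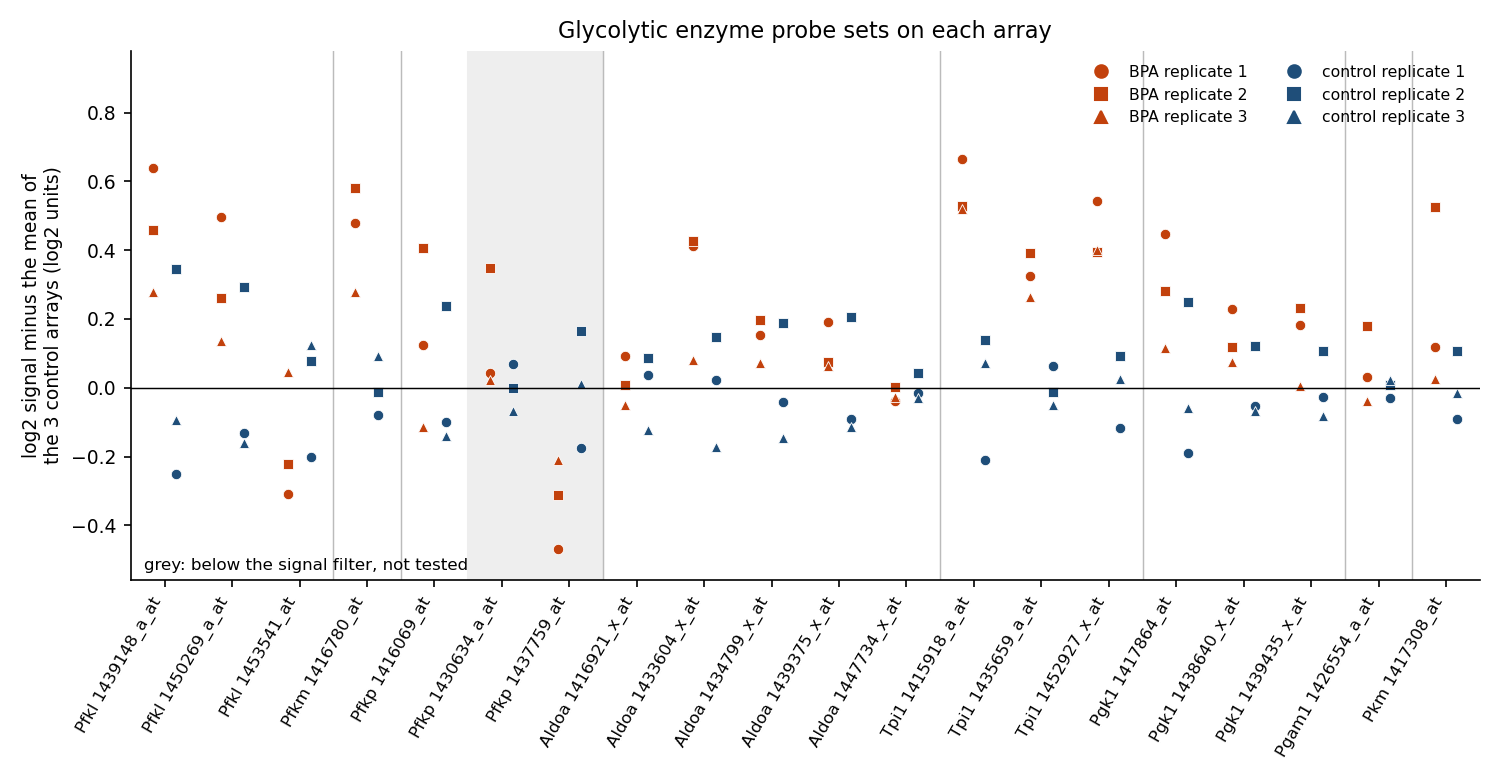
Log2 signal of the 20 member probe sets on each of the 6 arrays, as the difference from the mean of the 3 control arrays (log2 units); each marker is 1 array, with BPA left of control. The 3 probe sets of Tpi1 and that of Pfkm have all BPA arrays above all control arrays, while control replicate 2 reaches the BPA arrays in most others.

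The array to array pattern was shared by most members. With each of the 8 genes read by its brightest probe set and centred on its 6-array mean, the members averaged 0.16, 0.23 and -0.0061 in BPA replicates 1 to 3, against -0.22, 0.0076 and -0.17 in control replicates 1 to 3. BPA replicate 3 and control replicate 2 were therefore nearly equal, and the groups touched there. BPA replicate 2 was the highest array for 8 of the 18 tested probe sets and BPA replicate 1 for 7. Control replicate 3 was the lowest for 9 and control replicate 1 for 6. Over all tested probe sets, BPA replicates 2 and 1 were the highest for 20.9% and 20.5%, and control replicates 3 and 1 the lowest for 20.1% and 13.8%.

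Promoter windows of the 3 genes with the smallest p are shown, because these genes carry the largest differences. The windows run from 250 bases before to 50 after a RefSeq start site (GRCm38.p6), 5′ to 3′ on the gene's strand. Capitals mark ACGTG, the core that hypoxia-inducible factor binds, and GGGCGG, the GC box bound by Sp1, on either strand. The Tpi1 window is chr6:124814109-124814408 on the minus strand, that of Pfkl chr10:78009758-78010057 on the minus strand, and that of Pfkm chr15:98092339-98092638 on the plus strand, the first of 4 start sites listed for the gene.
Tpi1: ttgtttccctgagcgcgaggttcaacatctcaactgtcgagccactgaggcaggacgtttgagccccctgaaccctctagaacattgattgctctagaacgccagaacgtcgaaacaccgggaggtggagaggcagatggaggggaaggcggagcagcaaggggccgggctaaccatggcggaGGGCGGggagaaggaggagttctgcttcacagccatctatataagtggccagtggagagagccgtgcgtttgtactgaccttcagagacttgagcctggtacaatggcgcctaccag
Pfkm: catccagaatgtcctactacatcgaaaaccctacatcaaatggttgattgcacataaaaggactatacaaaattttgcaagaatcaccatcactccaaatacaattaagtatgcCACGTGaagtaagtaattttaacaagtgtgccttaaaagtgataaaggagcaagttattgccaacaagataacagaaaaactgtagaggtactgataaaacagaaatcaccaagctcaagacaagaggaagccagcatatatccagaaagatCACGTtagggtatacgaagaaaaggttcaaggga
Pfkl: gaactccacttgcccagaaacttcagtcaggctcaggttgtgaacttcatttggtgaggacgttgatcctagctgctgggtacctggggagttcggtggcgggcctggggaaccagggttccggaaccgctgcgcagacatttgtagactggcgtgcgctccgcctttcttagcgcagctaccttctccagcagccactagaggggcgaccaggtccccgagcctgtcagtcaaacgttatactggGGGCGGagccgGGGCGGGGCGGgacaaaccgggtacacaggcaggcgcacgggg

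The Tpi1 window held 1 GC box, 67 bases before the start, and no ACGTG. The Pfkl window held 3 GC boxes and no ACGTG, and the last 2 of those 3 overlap by 1 base. The Pfkm window held no GC box, an ACGTG after the start and a CACGTG, the E-box letters, 136 bases before it. CACGTG reads the same on both strands and so contains ACGTG on each. Of the other 3 Pfkm windows, 1 held ACGTG. All 10 member genes matched the promoter table, Gpi1 and Eno1 included. ACGTG was present in 5 of the 10 (Pfkm, Aldoa, Pgk1, Pgam1 and Pkm) in at least 1 window, and in 21.8% of all 27025 genes in the table. GGGCGG was present in 9 of the 10, all but Pfkm, and in 38.2% of all genes. CACGTG was present in Pfkm only among the members, and in 8.09% of all genes. The full oestrogen response element palindrome occurred in 0 of the members' 18 windows and in 23 of all 32851. A match is a description of letters, and genes with more start sites had more chances to match.

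The phosphofructokinase genes, which encode the liver-type (Pfkl), muscle-type (Pfkm) and platelet-type (Pfkp) subunits, differed in how their arrays fell. Pfkm had 10.76, 10.86 and 10.55 after BPA, against 10.20, 10.26 and 10.37 in controls. All 3 BPA arrays were above all 3 controls, and the gap between the nearest arrays was 0.18. The difference was 0.45 ± 0.12 (SE), a signal 1.36 times that of controls, and did not pass the test (limma adjusted p = 0.655). Pfkm has only 1 probe set, so no second reading of the gene stands beside it.

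Pfkl was read by 3 probe sets that did not agree. Probe set 1439148_a_at had 10.40, 10.22 and 10.04 after BPA, against 9.51, 10.10 and 9.66 in controls. Control replicate 2 lay above BPA replicate 3, so the groups overlapped, with a difference of 0.46 ± 0.18 (SE, limma adjusted p = 0.748). Probe set 1450269_a_at had 8.84, 8.60 and 8.48 after BPA, against 8.21, 8.64 and 8.18 in controls, a difference of 0.30 ± 0.17 with control replicate 2 above 2 of the BPA arrays. These 2 followed each other over the 6 arrays (r = 0.967). The third, 1453541_at, went the other way, with 6.59, 6.68 and 6.94 after BPA, against 6.70, 6.98 and 7.02 in controls. Its difference was -0.16 ± 0.15, and it correlated with the other 2 at -0.355 and -0.440. Its mean of 6.82 was the closest to the filter of all tested members.

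Pfkp had 1 tested probe set, 1416069_at, with 9.26, 9.54 and 9.02 after BPA, against 9.04, 9.37 and 8.995 in controls. The groups overlapped almost fully, with replicate 2 highest in both, and the difference was 0.14 ± 0.18 (95% interval -0.28 to 0.56). It was 0.0050 without BPA replicate 2, 0.27 without BPA replicate 3 and 0.26 without control replicate 2, so its size rests on single arrays. The interval includes the difference of Pfkm. Whether Pfkm and Pfkp differed in their response was not tested. The 2 other probe sets of Pfkp lay below the filter and were not tested in the main fit. Probe set 1430634_a_at had 4.91, 5.21 and 4.89 after BPA, against 4.93, 4.87 and 4.80 in controls. Probe set 1437759_at had 4.16, 4.31 and 4.42 after BPA, against 4.45, 4.79 and 4.64 in controls, lower on all BPA arrays. Both means, 4.94 and 4.46 over the 6 arrays, lie well under the filter. In the limma alternative without a filter, 1437759_at had an unadjusted p of 0.022 and an adjusted p of 0.837. For 1430634_a_at these were 0.253 and 0.884.

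Tpi1, the isomerase that lets both products of the split sugar proceed, was the only member read by several probe sets that all separated the groups. Probe set 1415918_a_at had 11.47, 11.33 and 11.32 after BPA, against 10.59, 10.94 and 10.88 in controls. Probe set 1452927_x_at had 12.33, 12.19 and 12.19 after BPA, against 11.67, 11.88 and 11.82 in controls. Probe set 1435659_a_at had 11.21, 11.27 and 11.15 after BPA, against 10.94, 10.87 and 10.83 in controls. In each of the 3, every BPA array lay above every control array, by at least 0.20. The differences were 0.57 ± 0.12, 0.45 ± 0.097 and 0.33 ± 0.093 (SE), or 1.49, 1.36 and 1.25 times the control signal. None passed the test, with limma adjusted p of 0.655, 0.655 and 0.674. The 3 probe sets correlated with each other at 0.828 to 0.994 over the 6 arrays. With each array left out in turn, and under the other scalings, the 3 differences stayed between 0.29 and 0.64. Other filters and moderations leave a fitted difference unchanged. With the RNA balance described below as a covariate, 1415918_a_at was at 0.72 and 1435659_a_at at 0.24, outside that range, and 1452927_x_at at 0.48.

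Aldoa was read by 5 probe sets, all with names ending in _x_at, the manufacturer's mark for probes that also match other sequences. Tpi1 1452927_x_at and Pgk1 1438640_x_at and 1439435_x_at carry the same mark. Probe set 1433604_x_at had 11.29, 11.30 and 10.96 after BPA, against 10.90, 11.03 and 10.71 in controls, a difference of 0.31 ± 0.14 (SE). BPA replicate 3 lay below control replicate 2, so the groups overlapped. Probe set 1434799_x_at had 12.39, 12.44 and 12.31 after BPA, against 12.20, 12.43 and 12.09 in controls. Probe set 1439375_x_at had 12.07, 11.96 and 11.94 after BPA, against 11.79, 12.09 and 11.77 in controls. Control replicate 2 was again within or above the BPA arrays, and the differences were 0.14 ± 0.11 and 0.11 ± 0.11. Probe set 1416921_x_at had 12.32, 12.23 and 12.17 after BPA, against 12.26, 12.31 and 12.10 in controls. Probe set 1447734_x_at had 12.14, 12.18 and 12.15 after BPA, against 12.16, 12.22 and 12.15 in controls. These last 2 differed by 0.016 ± 0.094 and -0.021 ± 0.077, and their signs turned under some alternatives. Pairs of Aldoa probe sets correlated at 0.098 to 0.90 over the 6 arrays, so the size of any difference for this gene depends on the probe set read. The adjusted p of the 5 ran from 0.791 to 0.983 (limma).

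Pgk1 was higher by 0.14 to 0.28 in its 3 probe sets, and the groups overlapped in each. Probe set 1417864_at had 11.74, 11.58 and 11.41 after BPA, against 11.11, 11.54 and 11.24 in controls. Probe set 1438640_x_at had 13.21, 13.10 and 13.06 after BPA, against 12.93, 13.11 and 12.92 in controls. Probe set 1439435_x_at had 11.22, 11.27 and 11.04 after BPA, against 11.01, 11.15 and 10.96 in controls. In each, control replicate 2 stood among the BPA arrays and the other 2 controls below them. The differences were 0.28 ± 0.15, 0.14 ± 0.088 and 0.14 ± 0.11 (SE, limma adjusted p from 0.806 to 0.862), and the 3 correlated at 0.855 to 0.971.

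The last 2 enzymes had 1 probe set each. Pgam1 had 11.84, 11.99 and 11.77 after BPA, against 11.78, 11.81 and 11.83 in controls, with the lowest array in the BPA group. Its difference was 0.057 ± 0.093 (95% interval -0.16 to 0.28) and had no sign that held with every array left out. Pkm had 11.43, 11.83 and 11.33 after BPA, against 11.21, 11.41 and 11.29 in controls. BPA replicate 2 stood above the rest and the other 2 BPA arrays lay close to control replicate 2, with a difference of 0.22 ± 0.15 (limma adjusted p = 0.842) that was 0.072 without BPA replicate 2. Splicing of the Pkm transcript makes the M1 and M2 forms of the enzyme, and 1 probe set does not separate them.

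**Figure D2:**
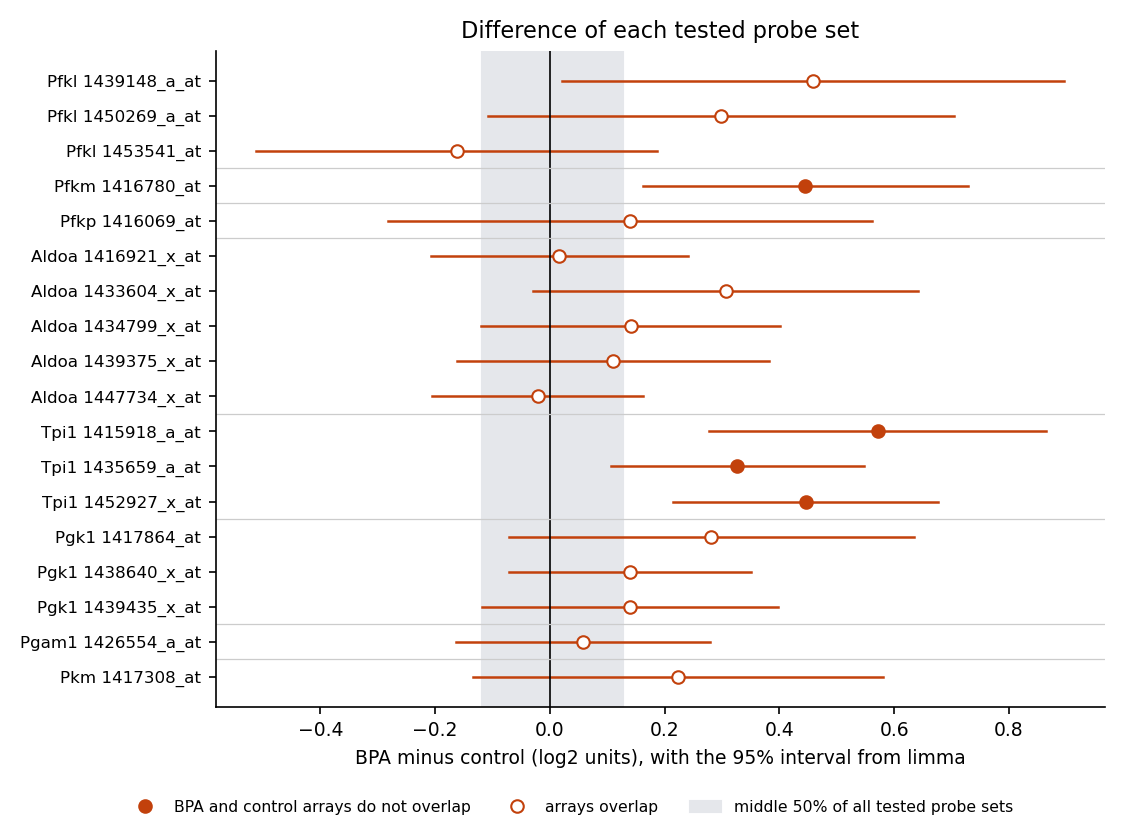
Fitted difference of BPA minus control (log2 units) for the 18 tested member probe sets, with the 95% interval from limma; filled circles are probe sets whose BPA and control arrays do not overlap, and the grey band holds the middle 50% of all tested probe sets (-0.12 to 0.13). The intervals of Tpi1, of Pfkm and of 1 Pfkl probe set lie above 0 before adjustment, and none passed after it.

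Neighbouring genes of the pathway came from 5 lists of 62 genes, 47 of them tested, each by its brightest tested probe set. None passed (smallest limma adjusted p = 0.734), 28 were higher and 19 lower after BPA. Among the other glycolytic enzymes and isoenzymes, 8 of 9 were higher, with a median of 0.15. Aldoc, the brain-type aldolase, had 9.43, 9.46 and 9.36 after BPA, against 9.26, 8.99 and 9.01 in controls. Hk3, a hexokinase of white blood cells, had 8.29, 8.47 and 8.35 after BPA, against 8.03, 8.004 and 8.21 in controls. Both had every BPA array above every control, by 0.33 ± 0.12 and 0.29 ± 0.12 (SE, limma adjusted p = 0.734 and 0.748). The exception among the 9 was Eno3, the muscle enolase, named here after its values were seen, at -0.30 ± 0.44, with replicate 3 highest in both groups. The probe sets of Gapdh outside the array's controls name several genes, so Gapdh was not analysed here.

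Downstream of pyruvate, 7 of 10 tested genes were higher and 3 lower, with a median of 0.072. Ldha, the lactate dehydrogenase subunit that beta cells normally keep low, is named here after its values were seen. It had 9.57, 8.90 and 9.04 after BPA, against 8.59, 8.87 and 8.87 in controls, and did not overlap, although BPA replicate 2 stood only slightly above the controls. Its difference was 0.39 ± 0.20 (limma adjusted p = 0.798). The lactate transporter Slc16a1, also kept low in beta cells, was too dim to be tested, with 5.88, 5.07 and 5.56 after BPA, against 5.15, 5.41 and 5.23 in controls.

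Enzymes that regulate or reverse glycolysis had no common direction, with 4 of 8 higher, 4 lower and a median of -0.052. G6pc2, the islet glucose-6-phosphatase that undoes the hexokinase step, had 13.67, 13.73 and 13.70 after BPA, against 13.85, 13.99 and 13.80 in controls. Every BPA array lay below every control, with a difference of -0.18 ± 0.075 (SE, limma adjusted p = 0.764). Fbp1, which reverses the phosphofructokinase step and is named after its values were seen, differed by -0.52 ± 0.38, and BPA replicate 3 at 9.11 lay far below the other arrays. Of the hypoxia-inducible genes outside glycolysis, 4 of 14 were higher and 10 lower, with a median of -0.065. Hif1a, the oxygen-regulated transcription factor subunit and also named after its values were seen, had 11.03, 11.07 and 10.85 after BPA, against 11.22, 11.09 and 11.15 in controls. Another probe set of Hif1a differed by 0.17, so its direction depends on the probe set. Slc2a1, a glucose transporter gene of the same list also named after its values were seen, differed by 0.33 ± 0.21 (SE) with overlapping groups. Its 2 other tested probe sets differed by 0.43 and 0.50. Pentose phosphate enzymes, which branch from the start of the pathway, were higher in 5 of 6, with a median of 0.054.

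**Figure D3:**
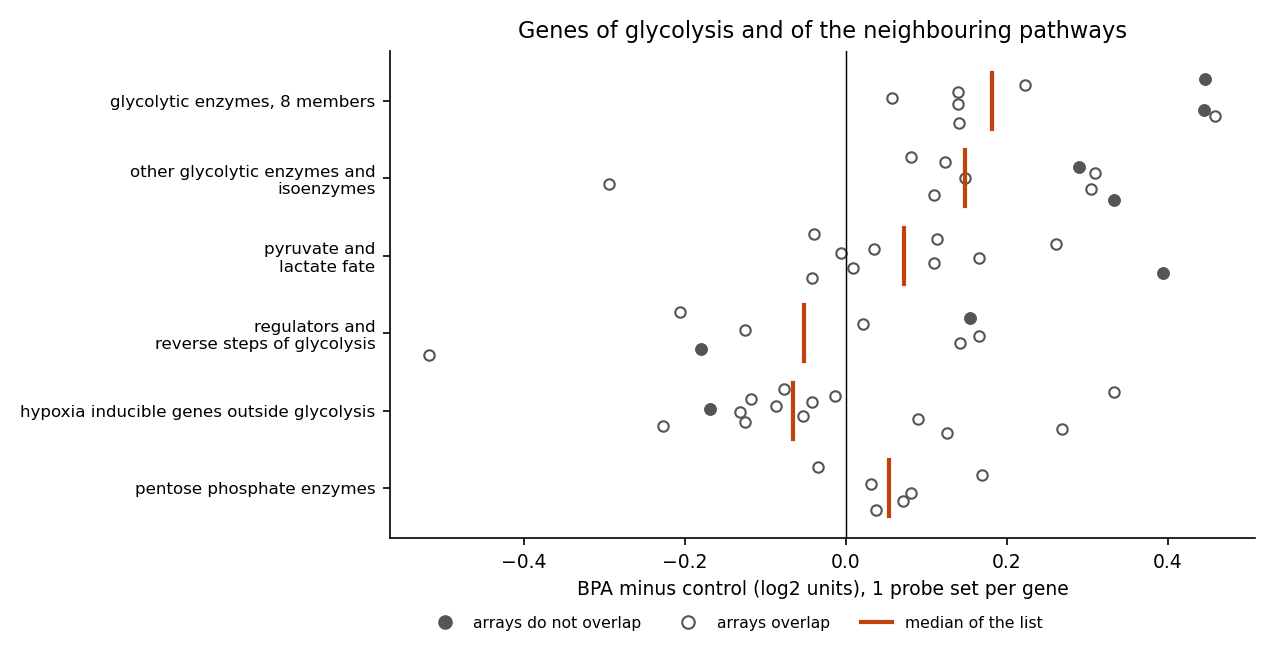
Difference of BPA minus control (log2 units) for the tested genes of 6 lists, 1 circle per gene read by its brightest tested probe set; filled circles are genes whose BPA and control arrays do not overlap and bars are list medians. Medians are 0.18 for the members and 0.15 for the other glycolytic enzymes, and -0.065 for the hypoxia-inducible genes.

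Other measures of the same arrays moved with the groups. The 3′ minus 5′ signal of the array's control transcripts for mouse Gapdh and beta-actin, which reflects how complete the labelled RNA is, was 2.60, 2.87 and 2.99 after BPA, against 3.42, 3.79 and 3.54 in controls. The groups did not overlap, and the difference of -0.77 had a two-sided exact permutation p of 0.1, the smallest that 3 against 3 arrays can give. With this balance as a covariate the members' median was 0.34 and again none passed. No member had an unadjusted p under 0.05 in that limma fit, where 1.69% of all tested probe sets did. The 3 Tpi1 probe sets (1415918_a_at, 1452927_x_at and 1435659_a_at) were then at 0.72 ± 0.35, 0.48 ± 0.29 and 0.24 ± 0.28, and Pfkm at 0.34 ± 0.35 (SE). The sign turned for Pfkl 1453541_at (0.38 ± 0.34) and for Aldoa 1416921_x_at (-0.043 ± 0.28) and 1447734_x_at (0.065 ± 0.23). Standard errors were wide, since the balance separates the groups. Its part in the members' difference cannot be told apart from that of BPA.

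Marker lists of other cell types were also uneven. Of the 10 acinar cell markers tested, 10 had a higher mean after BPA, and the list averaged -0.41 to 0.82 in BPA arrays and -1.30 to 0.52 in controls, lowest in control replicate 3. Of the 12 stellate cell and fibroblast markers, 10 were higher, and the list averaged -0.030 to 0.57 in BPA arrays, highest in replicate 1, and -0.50 to 0.0088 in controls. Immune markers were higher in 8 of 10 (-0.14 to 0.53 in BPA arrays, -0.28 to 0.11 in controls) and glia and nerve markers in 4 of 6 (0.097 to 0.26 in BPA arrays, -0.35 to 0.033 in controls). Endothelial markers were higher in 3 of 7 (-0.11 to 0.16 in BPA arrays, -0.080 to 0.035 in controls) and duct markers in 3 of 3 (-0.31 to 0.62 in BPA arrays, -0.22 to 0.13 in controls). Of 3 named red blood cell markers only 1 passed the filter. Glycolytic enzymes are expressed in all of these cells, and the part of these cells in the members' difference was not tested. In bulk islets, fewer cells of a type and less RNA per cell cannot be told apart. Array values have a floor above 0, so no marker reads as absent.

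**Figure D4:**
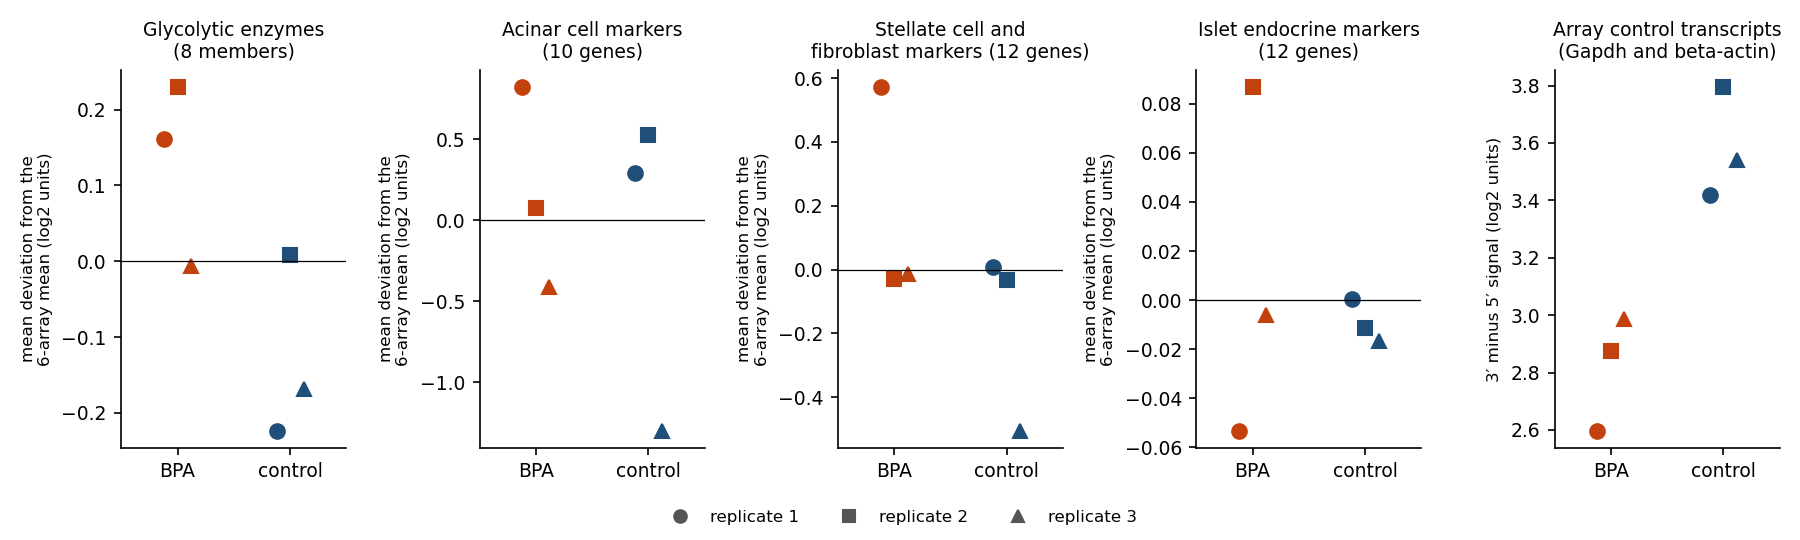
Mean deviation from the 6-array mean (log2 units) of the 8 members, of acinar, stellate and endocrine marker lists, and the 3′ minus 5′ signal of the array's Gapdh and beta-actin control transcripts, for each array, BPA left of control; each panel has its own scale. The members are lowest in control replicates 1 and 3, and among these panels only the control transcripts separate the groups in full. The mean of the glia and nerve list, not drawn here, also separates them.

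Genes most like the members were found by Pearson's correlation with the members' mean over the 6 arrays, among 11779 other genes. The 6 closest were Mta2 (0.996), a subunit of a histone deacetylase complex, Xpnpep1 (0.996), an aminopeptidase, Eif2b5 (0.991), a translation initiation factor subunit, Pdhx (0.987), a component of the pyruvate dehydrogenase complex, Slc7a4 (0.986) and Stat3 (0.985), a transcription factor of cytokine signalling. Mta2 had 8.80, 8.96 and 8.57 after BPA, against 8.17, 8.62 and 8.30 in controls, with the same overlap of control replicate 2 as the members. Of the 11779 genes, 87 had a correlation above 0.95, and these 6 were chosen for the highest values.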

How the data were processed

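Islet RNA of 3 BPA and 3 control samples was labelled as biotinylated cRNA and read on Affymetrix arrays, per the labels' protocols. The authors deposited 1 log2 value per probe set and array; the submitters' processing notes name MAS5 and give no version, and the probe summary and scaling are otherwise not given in the sources used here. The lowest value was 2.95 to 3.04 on every array, a narrower low end than is usual for MAS5, so the summary method was not settled, and the sizes of log2 differences depend on it. Detection calls were not used here. Values were used as deposited. Groups and replicate numbers came from the sample titles.

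The platform annotation gave 1 gene to 34945 of the 45037 probe sets, several to 932 and none to 9160. BPA and control were compared with limma 3.58.1 (R 4.3.3), a linear model moderated by eBayes along a mean trend, and two-sided p-values were adjusted by Benjamini-Hochberg over the 22518 probe sets with a mean signal above the median of 6.60, with 0.05 as the threshold, a step that was tested on simulated data. The simulated shifts were larger than any member's difference, so detection of differences as small as these was not tested. Probe sets below the filter are given as values, and were tested only in the alternative without a filter. Lists name each gene by its brightest tested probe set. From the lists, up to 4 genes per list and direction with an unadjusted p under 0.05 and no overlap are named, and others are named as chosen after their values were seen. Members, lists and tests were chosen with earlier results of these data known. The number of arrays limits the precision. Promoter windows came from RefSeq (GRCm38.p6). Alternatives were 3 other scalings, 2 other filters, 2 other moderations, the replicate block, each array left out, both replicate 3 arrays left out, the balance covariate and 2 other choices of probe sets. Figures were drawn with matplotlib 3.10.9 in Python 3.11.15.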

Additional observations from a re-analysis of the deposited data

How the results depend on the processing

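No member probe set passed an adjusted p of 0.05 in limma under any of the alternatives run, and the median difference kept its sign in all of them. The median ran from 0.14 to 0.29 with single arrays left out and moved to 0.34 when the 3′ minus 5′ balance was a covariate (the cause was not tested). The count of probe sets higher without overlap was 4, and was 9 under quantile normalization, 7 under cyclic loess, 4 to 13 with single arrays left out, 10 without both replicate 3 arrays, and 2 with 1 probe set per gene, where fewer are counted. Under quantile normalization it was 9, beside 8.49% of all tested probe sets, and under cyclic loess 7, beside 6.06%. The cause of these changes was not tested. At an unadjusted p under 0.05 there were 5 member probe sets, beside 6.47% of all tested probe sets. There were 7 without control replicate 2, beside 5.13% of all, and 6 without BPA replicate 3, beside 14.0%. With any other single array left out there were 4, beside 4.15% to 6.17% of all. There were 3 with 1 probe set per gene and 0 with the balance covariate, where 1.69% of all were past it. Without a filter there were 6 of 20, beside 5.87% of all probe sets. Of these, 5 were higher after BPA, and Pfkp 1437759_at was lower. Among the 10 tested member probe sets without the _x_at mark, the median difference was 0.29. Of these 10, 3 were higher without overlap, beside 7.83% of all tested probe sets, and 4 had an unadjusted p under 0.05, beside 6.47%. Of 270 values of single probe sets under the alternatives other than the balance covariate, 6 changed sign, in 3 probe sets near 0. The other filters, the other moderations and the replicate block leave a fitted difference unchanged, so their values among the 270 could not change sign. With the covariate the sign turned for Pfkl 1453541_at (0.38) and for Aldoa 1416921_x_at (-0.043) and 1447734_x_at (0.065). Without the covariate, Aldoa 1416921_x_at ran from -0.045 to 0.059 with single arrays left out and was -0.011 without both replicate 3 arrays. Aldoa 1447734_x_at was 0.00061 under median centring and ran from -0.036 to 0.00054 with single arrays left out. Pgam1 ran from -0.0037 to 0.11. The 3′ minus 5′ balance differed by -0.73 for Gapdh alone and -0.80 for beta-actin alone. The replicate numbers do not clearly pair the samples: deviations of same-numbered arrays correlated at 0.476, 0.078 and 0.706, and BPA replicate 2 correlated best with control replicate 1. With the replicate block, 0 member probe sets passed (smallest adjusted p = 0.211), 6 had an unadjusted p under 0.05, and over all tested probe sets 3042 did, against 1458 without it.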

Other observations

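Single markers of other cell types are given as values, since no gene passed the test. Th, the rate-limiting enzyme of catecholamine synthesis, had 10.59, 10.59 and 10.06 after BPA, against 9.42, 9.78 and 9.81 in controls, a difference of 0.74 ± 0.19 (SE). Bhlha15, a transcription factor of acinar and other secretory cells, had 11.87, 11.83 and 11.55 after BPA, against 11.38, 11.30 and 11.21 in controls, a difference of 0.45 ± 0.12. C1qa, a complement component made by macrophages, differed by 0.48 ± 0.15, Tagln, a smooth muscle protein, by 0.40 ± 0.16 and Emcn, an endothelial sialomucin, by 0.35 ± 0.14. These 5 were chosen for an unadjusted p under 0.05 and for groups that do not overlap. Of all tested probe sets, 7.83% were higher after BPA without overlap. For the 5, limma gave adjusted p from 0.655 to 0.747. Other tested markers of the same lists went both ways, except in the acinar list. Higher means were found for 10 of 10 acinar, 10 of 12 stellate, 8 of 10 immune, 4 of 6 glia and nerve and 3 of 7 endothelial markers. Prph, of the glia and nerve list, differed by 0.74 ± 0.34 and Lyz2, of the immune list, by 1.11 ± 0.52 (SE), both with overlapping groups. Some were lower or near 0. Dbh, a later enzyme of the same pathway as Th, differed by -0.017, and C1qb, a partner chain of C1qa, by -0.081. The 2 other tested probe sets of C1qb differed by -0.19 and 0.67, so its direction depends on the probe set. C1qc, another chain, differed by 0.39 ± 0.20 (SE). The endothelial markers Cdh5, Kdr, Flt1 and Plvap differed by -0.055, -0.071, -0.029 and -0.15. Cd68, a macrophage glycoprotein named after its values were seen, was too dim to be tested, with 7.75, 6.58 and 6.74 after BPA, against 6.14, 5.96 and 5.75 in controls.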
